A study of Mus musculus with 3 samples.

Results

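The genes described here are 7 matrix metalloproteinases (MMPs), Mmp2, Mmp3, Mmp9, Mmp10, Mmp11, Mmp13 and Mmp14, and 3 tissue inhibitors of metalloproteinases (TIMPs), Timp1, Timp2 and Timp3. They were taken by symbol from the 31053 mouse genes of the deposited matrices, and each symbol matched 1 protein-coding gene in each of the 3 libraries. Single cells had been measured with a 3′ tag assay (10x Genomics, version 3 chemistry) that counts unique molecular identifiers (UMIs), 1 library per group. One group was bladder of wild-type C57BL/6 mice aged 8 to 9 weeks, a pool of 8 bladders. The remaining groups were bladder assembloids, which are built in culture from epithelial organoids and stromal cells. They had been taken 1 day and 7 days after reconstitution, and each library was a pool of 3 assembloids. Tissue and assembloids had been dissociated with enzymes. The sources used here do not name the strain, sex or culture additives of the assembloids, and a pool gives no value per animal or per assembloid.

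MMPs are zinc-dependent proteases, secreted or anchored in the membrane, that cleave collagens, proteoglycans and other matrix and cell-surface proteins. Most are made as inactive precursors and are activated by other proteases, among them plasmin, furin and other MMPs. TIMPs block the active site with 1 inhibitor bound to 1 enzyme. Timp2 together with Mmp14 also brings the Mmp2 precursor to the cell surface for activation. In bladder, as in other organs, fibroblasts are a main source of these proteins.

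A group of 3 proteases, Mmp13, Mmp3 and Mmp10, lie together on mouse chromosome 9 (mm10) in a row of 10 MMP genes. Mmp13 spans positions 7272514 to 7283331, Mmp3 7445822 to 7455975 and Mmp10 7502352 to 7510240, all on the plus strand. RefSeq promoters of 250 bases before to 50 bases after the start (GRCm38.p6) matched 8 of the 10 genes. Mmp2 and Mmp9 had no entry. The 150 bases before the RefSeq start are shown for the 3 linked proteases and, for contrast, for Mmp14 and Timp1, the protease and the inhibitor with the highest stromal level in 1-day assembloids. They run 5′ to 3′, and capitals mark the AP-1 word TGANTCA and the TATA word TATAAA. The windows are chr9:7272364-7272513, chr9:7445672-7445821, chr9:7502192-7502341, chr14:54431448-54431597 and chrX:20870016-20870165, all on the plus strand.
Mmp13: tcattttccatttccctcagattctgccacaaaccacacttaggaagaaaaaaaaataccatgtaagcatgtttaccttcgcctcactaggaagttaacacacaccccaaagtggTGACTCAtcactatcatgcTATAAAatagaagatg
Mmp3: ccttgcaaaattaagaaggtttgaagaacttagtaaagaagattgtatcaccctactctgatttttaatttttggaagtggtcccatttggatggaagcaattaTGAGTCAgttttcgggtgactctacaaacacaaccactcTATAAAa
Mmp10: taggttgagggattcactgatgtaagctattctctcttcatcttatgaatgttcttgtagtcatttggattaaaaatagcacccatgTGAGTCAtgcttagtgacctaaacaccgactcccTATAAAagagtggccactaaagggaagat
Mmp14: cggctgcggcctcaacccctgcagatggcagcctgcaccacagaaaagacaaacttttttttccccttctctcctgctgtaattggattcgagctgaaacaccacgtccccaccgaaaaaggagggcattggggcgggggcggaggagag
Timp1: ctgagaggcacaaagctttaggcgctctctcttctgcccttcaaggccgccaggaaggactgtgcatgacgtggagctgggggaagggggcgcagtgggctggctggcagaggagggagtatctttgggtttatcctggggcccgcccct
The AP-1 word, searched on both strands, was found in 3 of the 8 promoters, those of Mmp13, Mmp3 and Mmp10, where its first base lay 35, 46 and 63 bases before the start. The same 3 promoters held the TATA word, which begins 16, 7 and 29 bases before the start. Of 32807 RefSeq promoters of the same length, 7.82% held the AP-1 word and 13.6% the TATA word. The linked proteases also had the lowest content of G and C, 43.7%, 40.0% and 37.7%, against 55.0% to 68.7% in the promoters of Mmp11, Mmp14, Timp1, Timp2 and Timp3 and a median of 52.7% over all promoters. The ETS word AGGAAG was in 5 of the 8 promoters and in 35.4% of all. These matches describe letters in a window and not bound sites.

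After filtering, the bladder library kept 6753 mouse cells, the 1-day library 8239 and the 7-day library 8146, and their median depth was 7543, 14950.0 and 9438 UMIs. Pairs of libraries shared 21 to 114 cell barcodes, and the 19 to 26 cells with fewer UMIs of such a barcode were left out per library. The 7-day library held cells of 2 kinds, with 237 cells between them. Of its cells, 3568 (43.8%) had at least 95% bladder cells among their 30 nearest cells of the other libraries and are called bladder-side, and 4341 (53.3%) had at most 5% and are called assembloid-side. Values of the 7-day library are given in total, and for several of them also for each side. With 1 library per group there is no replicate, so no test between groups was possible. All intervals in brackets are 95% intervals of counting error only. Levels are given as CPM, the UMIs of a gene scaled to 1000000 mouse UMIs of the cell class, and since a 3′ tag assay counts 1 tag per transcript they were compared between genes without a length correction.

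Cells were grouped by clustering without the Mmp and Timp genes, and clusters were named from marker genes. Stromal-like cells numbered 1448, 5082 and 3854. Those of the bladder were in clusters 5 (led by Dpt, Clec3b and Inmt) and 9 (Car3, Rbp4 and Scara5), and those of the 1-day library in clusters 14 (Aard, Bmp4), 18 (Tnfsf15, Sfrp1), 21 (Htr1b, Hoxc8, Crabp1) and the cycling clusters 22 and 23. The 7-day library filled both sets. A cluster found mostly in 1 library may mark that library and not a type. Clusters 21, 22 and 23 were named stromal-like only in a second naming step, described with the processing. All 16 stromal markers were above 20 CPM in the stromal-like cells of each library, but their summed level was 79710, 17510 and 20750 CPM in bladder, 1-day and 7-day cells. The summed level of the 18 smooth muscle and pericyte markers was 547.4, 17860 and 14600 CPM in the same cells, with 6, 9 and 9 of the markers above 20 CPM. What part these shifts have in the differences between libraries described below was not tested.

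In stromal-like cells of the adult bladder Mmp2 led the 7 proteases and Timp2 the 3 inhibitors, and in assembloids Mmp14 and Timp1 led. The shares and ratios below leave out MMPs outside the 10 genes. Of those, Mmp23 had 300.7 CPM in bladder stroma, where Mmp14 had 159.8, and 80.7 and 90.8 CPM at 1 and 7 days. Mmp2, a gelatinase, made up 80.9% of the UMIs of the 7 proteases in bladder, 16.7% in 1-day and 20.7% in 7-day cells. Mmp14, the membrane-anchored protease that activates Mmp2, made up 16.8%, 63.1% and 50.3%. Among the 3 inhibitors the share of Timp1 was 2.54%, 73.0% and 57.9%, and the share of Timp2 was 70.2%, 15.8% and 27.3%. The 3 inhibitors together gave 3.18 UMIs per UMI of the 7 proteases in bladder, 16.2 at 1 day and 8.28 at 7 days. On the 2 sides of the 7-day library this ratio was 8.64 (assembloid-side) and 2.96 (bladder-side). The lead of Mmp14 and Timp1 did not hold everywhere in that library. In its bladder-side cells Mmp2 made up 81.2% of the protease UMIs and Timp1 3.56% of the inhibitor UMIs. In its cluster 18 Mmp3 led the proteases, at 45.6% against 31.7% for Mmp14.

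**Figure D1:**
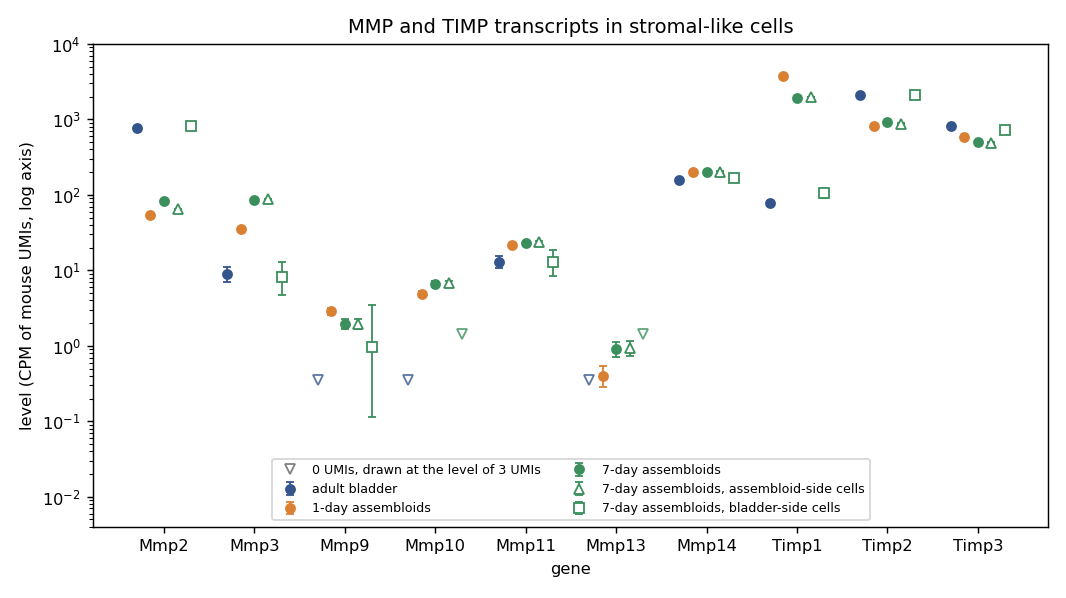
Level of each of the 10 genes in stromal-like cells (CPM of mouse UMIs, logarithmic axis) by library, with exact Poisson intervals as bars. Open triangles and squares are the assembloid-side and bladder-side cells of the 7-day library, and downward triangles mark 0 UMIs. The bladder-side squares sit close to the bladder points for Mmp2, Timp1 and Timp2. The assembloid-side triangles sit close to the 1-day points for Mmp2 and Timp2. For Timp1 the triangle lies below the 1-day point and far above the bladder point.

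Mmp2 (chromosome 8, 92827291 to 92853420) was lower in assembloid stroma than in bladder stroma. Its stromal level was 770.3 CPM [751.7 to 789.2] in bladder, 53.6 [52.2 to 55.0] at 1 day and 83.5 [81.5 to 85.5] at 7 days. Bladder cells therefore stood 14.4-fold above 1-day cells and 9.23-fold above 7-day cells (log2 ratio -3.84 [-3.90 to -3.79] and -3.21 [-3.25 to -3.16]). In the 7-day library the assembloid-side cells had 64.2 CPM and the bladder-side cells 812.7 CPM, so the 7-day level was 1.56-fold above the 1-day level in all cells and 1.20-fold on the assembloid side. The direction against bladder held under other settings but its size moved. With classes taken from each cell's marker UMIs the log2 ratio to bladder was -2.50 at both times, with mural-like cells counted as stromal-like it was -3.17 and -2.56, and as a mean of CPM over cells it was -3.70 and -1.74. Shares of cells were taken after thinning to 2500 UMIs, without the cells below that depth. A UMI of Mmp2 was then found in 75.5% of bladder, 12.5% of 1-day and 22.6% of 7-day stromal-like cells. In urothelial-like cells the shares were 0.227%, 0.558% and 0.382%. At 7 days the thinning kept 258 of the 589 cells of cluster 5 and 150 of the 218 of cluster 9, the clusters with high Mmp2.

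Mmp3, a stromelysin that cleaves many matrix proteins and activates other MMPs, went the other way. It was at 8.95 CPM [7.05 to 11.2] in bladder, 35.0 [33.8 to 36.1] at 1 day and 84.8 [82.8 to 86.8] at 7 days. Its UMIs were clumped in few cells, a spread that counting intervals do not cover. In bladder cluster 5, 1 cell held 15 of the 63 UMIs of Mmp3, and in bladder cluster 9, 1 cell held 9 of 13. The log2 ratio was 1.96 [1.64 to 2.31] at 1 day over bladder and 1.28 [1.22 to 1.34] at 7 days over 1 day. With classes from marker UMIs the log2 ratio to bladder was 2.60 at 1 day and 4.11 at 7 days, and with mural-like cells included it was 2.56 at 1 day. The bladder-side cells of the 7-day library had 8.10 CPM from 17 UMIs and the assembloid-side cells 86.9 CPM.

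Mmp3 was not spread evenly over assembloid stroma. Cluster 18 had 63.3 CPM at 1 day and 286.9 at 7 days, a log2 ratio of 2.18 [2.11 to 2.25]. Cluster 23, one of the cycling clusters, had 62.2 and 122.4 CPM, and cluster 14 had 68.5 and 59.4. Clusters 21 and 22 had 1.56 and 1.79 CPM at 1 day and 2.52 and 1.40 at 7 days, so the gene was nearly absent from 2 of the 5 assembloid clusters at both times. Within cluster 18 at 7 days, 336 of 854 cells had at least 1 of the 5235 UMIs, 1 cell held 438 of them, and the 10% of cells with the most UMIs held 79.6%. At 1 day the same cluster had 2365 UMIs in 543 of 1923 cells, with 77.0% in the highest 10%. After thinning, 20.5% of cluster 18 cells had a UMI of Mmp3 at 7 days and 10.4% at 1 day, against 0.218% and 0.223% of urothelial-like cells.

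Mmp10, the neighbouring stromelysin, was at 0 UMIs in the 8491512 UMIs of bladder stroma, where 3 UMIs would give 0.353 CPM. It had 4.90 CPM [4.48 to 5.35] at 1 day and 6.58 [6.04 to 7.16] at 7 days, at least 13.9-fold and 18.6-fold higher than that floor. Its highest level was 26.3 CPM in cluster 14 at 7 days, where 91 of 543 cells carried a UMI, and clusters 21 and 22 stayed between 0.452 and 1.24 CPM. Like Mmp3 it was therefore low in clusters 21 and 22 and higher in 14, 18 and 23. Of 840 thinned cells of cluster 18 at 7 days, 172 had a UMI of Mmp3, 12 of Mmp10 and 5 of both. A UMI of Mmp3 was thus found in 41.7% of the cells with Mmp10 and 20.2% of the others, shares that rest on 5 cells.

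Mmp13, a collagenase and also of the linked group, was rare in every class. Stromal-like cells had 0 UMIs in bladder, 41 at 1 day (0.396 CPM) and 75 at 7 days (0.908 CPM). In endothelial-like cells of the 1-day library it had 35 UMIs (7.81 CPM), all in 16 of the 392 cells of cluster 28, and the endothelial-like cells of the other libraries had 0 UMIs. Mmp9 (chromosome 2, 164940780 to 164955850), the other gelatinase, had 0, 297 and 161 UMIs in stromal-like cells of the bladder, 1-day and 7-day libraries. Those UMIs lay in 65 cells at 1 day and 39 at 7 days, and gave at most 6.41 CPM in any stromal cluster (cluster 21 at 1 day). Mmp9 was highest in myeloid-like cells of the bladder, at 48.5 CPM from 14 UMIs in 60 cells, 7 of them in 1 cell. In the myeloid-like cells of the assembloids it had 1.35 CPM at 1 day, from 1 UMI, and 13.3 at 7 days, from 10 UMIs of which 9 were in 1 cell.

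Mmp14 and Mmp11 differed by less than 2-fold between libraries. Mmp14 (chromosome 14, 54431612 to 54445364) had 159.8 CPM [151.4 to 168.5] in bladder stroma, 202.7 [199.9 to 205.4] at 1 day and 203.1 [200.1 to 206.2] at 7 days. The assembloids were 1.27-fold above bladder at both times, and the 2 assembloid libraries differed by a log2 ratio of 0.00 [-0.03 to 0.03]. Over the 5 assembloid clusters Mmp14 lay between 153.2 and 218.2 CPM. Bladder cluster 5, at 124.3 CPM, was below that range and bladder cluster 9, at 225.2 CPM, above it. Mmp11 (chromosome 10, 75923222 to 75936496, minus strand), a stromelysin cleaved to its active form inside the cell, had 13.1, 21.8 and 23.2 CPM. It overlaps Chchd10 on the opposite strand, which had 10.6, 67.9 and 83.5 CPM in the same cells. How the submitters' counting treated reads from that overlap is not given in the sources used here.

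Timp1 (chromosome X, 20870166 to 20874735), a secreted inhibitor of most MMPs and a weak one of Mmp14, had the largest ratio of assembloid to bladder level. It was at 77.0 CPM [71.2 to 83.2] in bladder stroma, 3804 [3792 to 3816] at 1 day and 1936 [1926 to 1945] at 7 days. The 1-day level was 49.4-fold and the 7-day level 25.1-fold above bladder (log2 ratio 5.62 [5.51 to 5.74] and 4.65 [4.54 to 4.76]), and the 7-day level was 1.97-fold below the 1-day level. The assembloid-side cells of the 7-day library had 1985 CPM and the bladder-side cells 105.3. After thinning, 96.4% of 1-day stromal-like cells had a UMI of Timp1, against 14.7% in bladder and 18.5% of 1-day urothelial-like cells.

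Timp1 was more than 2-fold lower at 7 days than at 1 day in clusters 18 and 23. In cluster 18 it went from 5539 to 2513 CPM (2.20-fold) and in cluster 23 from 5271 to 2189 (2.41-fold). In cluster 14 it went from 1860.0 to 1209 CPM, in cluster 21 from 2076 to 1949 and in cluster 22 from 1984 to 1835. The clusters with the most Timp1 at 1 day, 18 and 23, also had more Mmp3 at 7 days (log2 ratio 2.18 and 0.98). At 7 days the 4 clusters 18, 21, 22 and 23 had come to lie within 1835 to 2513 CPM of Timp1, while Mmp3 still ranged from 1.40 to 286.9.

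Timp2 and Timp3 were lower in assembloid stroma. Timp2 (chromosome 11, 118301069 to 118355740) had 2127 CPM [2096 to 2158] in bladder, 822.1 [816.6 to 827.6] at 1 day and 912.0 [905.5 to 918.6] at 7 days, 2.59-fold and 2.33-fold below bladder. With mural-like cells counted as stromal-like, these differences were under 2-fold (log2 ratio -0.81 and -0.68). The bladder-side cells of the 7-day library had 2139 CPM. Over the assembloid clusters the range was 658.2 to 1124 CPM, below both bladder clusters (2216 and 1969). Timp3 (chromosome 10, 86300372 to 86349506), an inhibitor that binds to matrix and also blocks ADAM and ADAMTS proteases, had 826.1, 587.5 and 497.0 CPM, a change of under 2-fold. By cluster it varied more than by library, from 1241 CPM in bladder cluster 9 and 600.1 in bladder cluster 5 to 187.1 in the cycling cluster 22 at 7 days. Clusters 14 and 18 had 884.1 and 882.7 CPM at 1 day and 996.1 and 566.5 at 7 days.

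**Figure D2:**
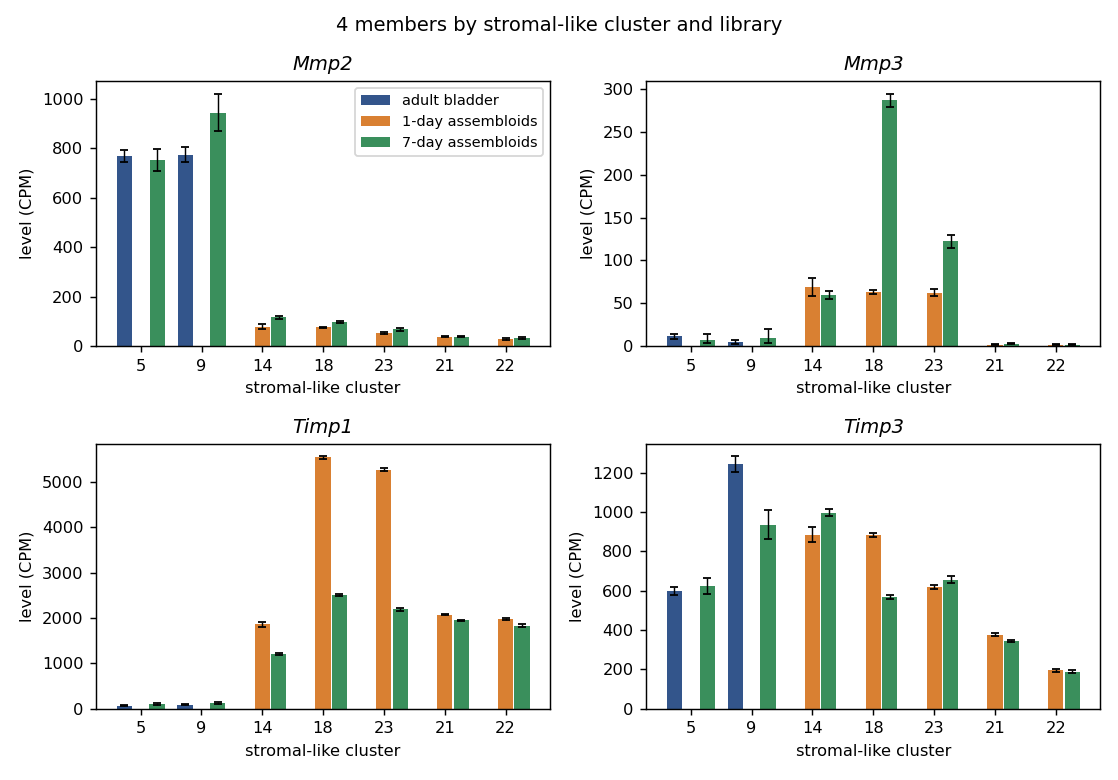
Levels of Mmp2, Mmp3, Timp1 and Timp3 (CPM, axes from 0) in each stromal-like cluster, with 1 bar per library that has at least 50 cells there and exact Poisson intervals. Mmp2 is high in clusters 5 and 9 in both libraries that hold them, Mmp3 stands out in cluster 18 at 7 days (286.9 CPM), and Timp1 is highest in clusters 18 and 23 at 1 day.

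Against all genes, the number of stromal differences from bladder was close to the background. A gene was called measured where the library with the higher level had 20 CPM or more. Of the 7 members measured, 2 (Mmp3 and Timp1) were at least 2-fold higher at 1 day than in bladder, where 19.9% of 6569 genes were, and 2 (Mmp2 and Timp2) were at least 2-fold lower, where 19.8% were. At 7 days the same 2 were higher against 18.2% of all genes, and the same 2 lower against 17.4%. Averaging CPM over cells instead of summing UMIs also put Mmp2 (log2 ratio 1.96) and Timp1 (-1.28) past 2-fold between 1 and 7 days. That mean weights each cell equally, and 797 of the 3854 7-day cells were bladder-side, with the higher Mmp2 and lower Timp1 levels given above. In the summed values of 7 days over 1 day, 1 of 7 members, Mmp3, was at least 2-fold higher, where 1.46% of 5621 genes were. At least 2-fold lower were 0 members, where 0.0890% of genes were. The median log2 ratio of the members was 0.34, 0.35 and 0.09 in the 3 comparisons, beside 0.14, 0.16 and 0.00 over all genes measured. The first 2 comparisons share the bladder library.

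In endothelial-like cells Timp3 was the leading member of the adult bladder and was low in assembloids. The 1130, 448 and 986 endothelial-like cells came from clusters 1 (lymphatic markers Prox1 and Lyve1), 4, 10 and 11 in bladder, mainly from cluster 28 (Apln, Angpt2) at 1 day, and from both sets at 7 days. Timp3 had 1484 CPM [1456 to 1513] in bladder, 65.8 [58.5 to 73.7] at 1 day and 507.3 [488.9 to 526.2] at 7 days. The 7-day value joined 52.7 CPM in assembloid-side and 1356 CPM in bladder-side cells. Bladder stood 22.6-fold above 1 day (log2 ratio -4.49 [-4.67 to -4.33]) and 28.2-fold above the assembloid-side cells of 7 days. The 7-day level was 7.71-fold above the 1-day level in all cells (log2 ratio 2.95, and 3.58 as a mean of CPM over cells), but 1.25-fold below it on the assembloid side (log2 ratio -0.32 [-0.59 to -0.05]). Lymphatic cluster 1 had the highest Timp3, 2820.0 CPM in bladder, and also had Timp2 at 1145 CPM, against 57.4 to 316.3 CPM of Timp2 in bladder clusters 4, 10 and 11. In the 56 cells of cluster 1 in the 1-day library Timp3 was 203.8 CPM.

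Timp1 and Mmp14 were higher in assembloid endothelium as a whole. Timp1 had 10.6, 370.0 and 126.1 CPM, and Mmp14 41.2, 84.5 and 90.9 CPM, with 118.6 CPM of Mmp14 on the assembloid side at 7 days. In the lymphatic cluster 1 Mmp14 went the other way, with 89.9 CPM [73.2 to 109.2] in bladder, 39.9 at 1 day (19 UMIs in 56 cells) and 48.4 [33.9 to 67.1] at 7 days. Timp1 at 7 days was 166.5 CPM in assembloid-side and 54.0 in bladder-side cells. Mmp2 had 8.47, 36.1 and 14.8 CPM and Timp2 360.9, 283.9 and 217.9. The 7-day values joined assembloid-side and bladder-side cells with 20.7 and 4.41 CPM of Mmp2 and 157.0 and 307.2 CPM of Timp2. On the assembloid side Mmp2 was thus more than 2-fold above bladder and Timp2 more than 2-fold below it. Of the 5 members measured, 3 (Mmp2, Mmp14 and Timp1) were at least 2-fold higher at 1 day than in bladder and 1 (Timp3) lower, in a class in which 22.4% of 6983 genes were higher and 22.4% lower. At 7 days 2 of 4 (Mmp14 and Timp1) were higher, beside 11.4% of all genes, and 1 (Timp3) lower, beside 9.65%. On the mean of CPM over cells neither Mmp14 (log2 ratio 0.80) nor Timp3 (-0.66) passed 2-fold in this comparison, in which both sides of the 7-day library enter. From 1 to 7 days 1 of 5 (Timp3) was higher, beside 8.73%, and 2 (Mmp2 and Timp1) lower, beside 1.85%. On the assembloid side Timp1 alone of these 5 was past 2-fold from 1 to 7 days (log2 ratio -1.15). Mmp14 was 2.05-fold above bladder at 1 day, and after centring on the median of all genes its log2 ratio was 0.94, under the limit.

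The low levels of stromal genes in other classes were set beside genes that those classes should lack. In urothelial-like cells (2684, 959 and 1903, in clusters 2, 3 and 7 of the bladder and 19 of the 1-day library), Col1a1, Col1a2, Col3a1, Dcn and Lum were at 0.0466% to 0.0814% of their stromal-like level in bladder, 2.06% to 3.73% at 1 day and 1.10% to 1.77% at 7 days. Timp1 was at 0.122%, 2.42% and 1.04% of its stromal level, inside the range of those 5 genes at 1 day and just under it at 7 days. The assembloid levels of 92.2 and 20.1 CPM are thus no larger than the background of stromal transcripts, and are not read as urothelial expression. In bladder its share was above the range, at a level of 0.0942 CPM. Mmp3 and Timp3, at 2.19% and 2.08% at 1 day and 1.11% and 1.68% at 7 days, were in the range of the assembloids, and in bladder above it, at 0.176% (1 UMI) and 0.50%. Mmp2 was above it at 1 day, at 4.63% from 13 UMIs. Mmp11 was above it in all 3 libraries, at 3.97%, 7.90% and 3.81%, with at most 1.72 CPM. The summed level of the 16 stromal markers in urothelial-like cells was 55.9, 387.5 and 265.6 CPM.

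Mmp14 and Timp2 exceeded that background in urothelium. Mmp14 had 9.52, 24.6 and 13.4 CPM, 5.96%, 12.2% and 6.59% of the stromal level, with 25.2 CPM in assembloid-side and 10.5 in bladder-side cells of the 7-day library. Timp2 had 39.8, 37.2 and 45.8 CPM, 1.87%, 4.53% and 5.02% of the stromal level. Its 7-day value joined 28.3 CPM in assembloid-side and 49.9 CPM in bladder-side cells. Of 3 members measured, 2 (Mmp14 and Timp1) were at least 2-fold higher at 1 day than in bladder and 0 lower, where 11.0% and 7.95% of 5812 genes were. At 7 days 1 of 2 (Timp1) was higher and 0 lower, where 0.920% and 0.0200% of 5000 genes were. From 1 to 7 days 0 of 3 were higher and 1 (Timp1) was lower, where 5.63% and 6.09% of 5718 genes were. Of the 1903 urothelial-like cells of the 7-day library, 1470 were bladder-side and 412 assembloid-side. The 7-day over bladder shares thus set mostly bladder-side cells against bladder. Each Timp1 call lies at the background given above.

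**Figure D3:**
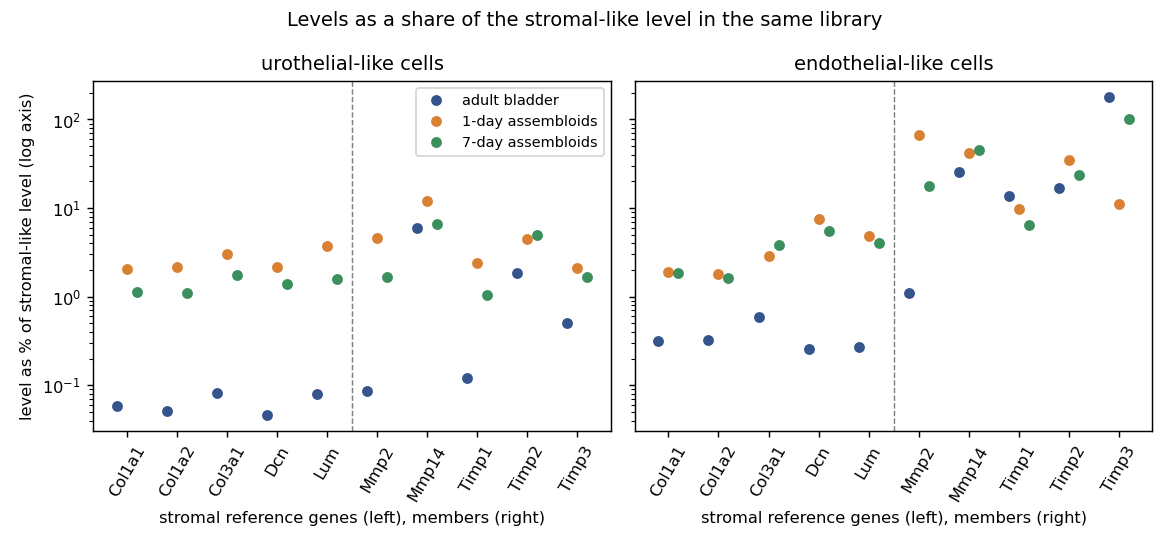
Level in urothelial-like (left) and endothelial-like (right) cells as a percentage of the stromal-like level in the same library (logarithmic axis), for 5 stromal reference genes and 5 members, 1 point per library. In assembloid urothelium Timp1 lies level with the collagens and Mmp14 above them. In endothelium Timp3 was at 179.7% of the stromal level in bladder and 11.2% at 1 day.

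In endothelial-like cells the same 5 reference genes were at 0.254% to 0.594% of the stromal level in bladder, 1.81% to 7.55% at 1 day and 1.63% to 5.52% at 7 days. Timp1 was at 13.8%, 9.73% and 6.51%, Mmp14 at 25.8%, 41.7% and 44.8%, and Timp2 at 17.0%, 34.5% and 23.9%, all above those ranges in the library as a whole. Shares for the 2 sides of 7 days were taken against the stromal level of the whole library, 1936 CPM for Timp1. In the bladder-side cells Timp1 was at 2.792% of it and the reference genes at 2.014% to 4.775%. In the assembloid-side cells Timp1 was at 8.601%, above 1.457% to 6.508%. The bladder-side stromal level of Timp1 given above was far lower than that of the library, so the bladder-side share is not read as background. Mmp2 was at 1.10%, 67.4% and 17.8%, against a stromal level that was itself lower in assembloids. The summed level of the 16 stromal markers in endothelial-like cells was 2218, 4107 and 4835 CPM. The 5 reference genes were each at 6.36 to 68.8 CPM in bladder, 2.01 to 70.5 at 1 day and 9.36 to 89.9 at 7 days. Most of that sum thus came from other markers of the list, and it is not read as a level of stromal background. The part of stromal transcripts in the values of Mmp2 and Timp1 there was not tested.

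Glia-like, mesothelial-like and myeloid-like cells gave other patterns. Mmp2 in glia-like cells was at 88.3 CPM [72.4 to 106.6] in bladder (293 cells, cluster 12) and 727.8 [703.4 to 752.9] at 1 day (688 cells, cluster 26), 8.25-fold higher. This was the highest Mmp2 level of any class in the 1-day library and 1357% of the stromal level there. A UMI was found in 76.0% of thinned 1-day glia-like cells and 25.1% of those of bladder. The 58 assembloid-side glia-like cells of the 7-day library had 156.6 CPM. Col1a1 in 1-day glia-like cells was at 50.3% of its stromal level and Dcn at 3.88%, both under the share of Mmp2. Mmp3 had 0 UMIs in glia-like cells of every library.

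In mesothelial-like cells Timp3 was 206.4 CPM in bladder (50 cells) and 1964 at 1 day (164 cells), while Timp2 was 3529 and 791.3 CPM. Of the bladder cells 49 were in cluster 16, and the 1-day cells were in cluster 17, and the sum of the 3 inhibitors was 3963 and 5387 CPM. Timp1 there was 228.3 and 2632 CPM and Mmp14 103.2 and 364.7. In myeloid-like cells (60, 85 and 86, all in cluster 6) Timp2 led in all 3 libraries, with 211.1, 479.9 and 371.5 CPM. Mmp12, a macrophage elastase outside the 10 genes, had 58.8, 455.5 and 388.8 CPM in these cells. Mural-like cells (smooth muscle and pericyte markers; 1053 in bladder and 681 at 7 days) had Timp3 at 1299 and 887.1 CPM and Timp2 at 300.4 and 401.4. In the 7-day library Timp3 made up 76.5% of the inhibitor UMIs in the 523 bladder-side cells. In the 64 assembloid-side cells it made up 26.6%, beside 38.3% for Timp2 and 35.2% for Timp1. The 46 mural-like cells of the 1-day library were too few to describe.

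**Figure D4:**
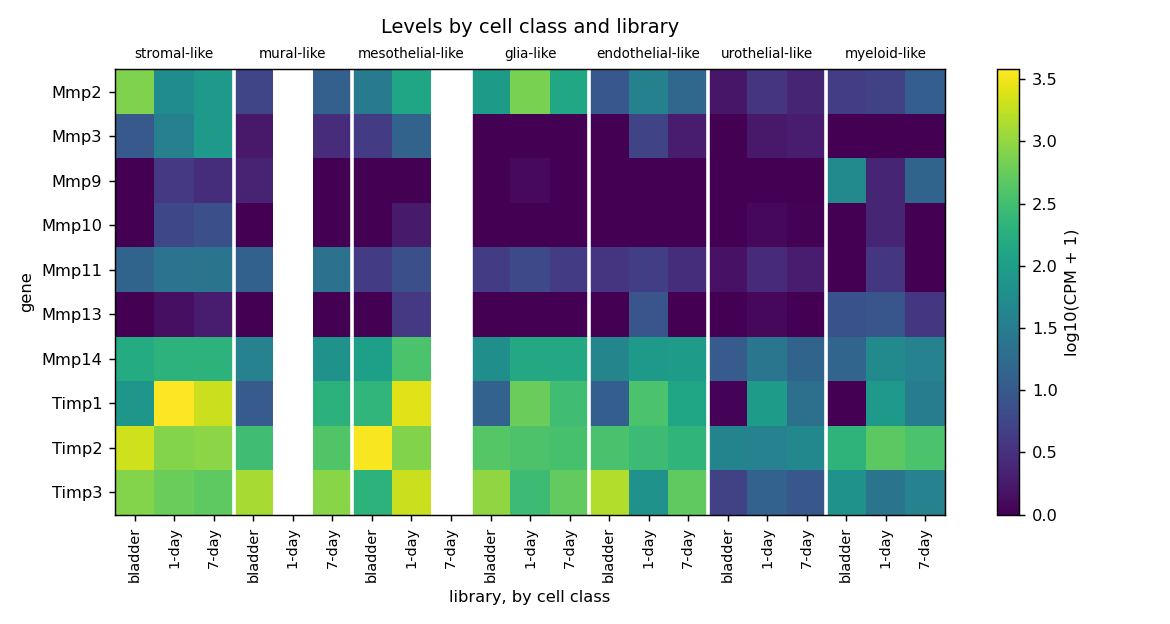
Levels of the 10 genes as log10(CPM + 1) in 7 cell classes, with 1 column per library and blank columns where a library has fewer than 50 cells of the class. Mmp2 is bright in bladder stroma and 1-day glia, Timp1 in assembloid stroma and mesothelium, and Timp3 in bladder mural-like and endothelial-like cells.

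The ratio of 1-day to bladder level thus had opposite signs in different classes for 3 members. For Mmp2 it was negative in stroma and positive in endothelium, glia and mesothelium. For Timp3 it was positive in mesothelium (9.52-fold) and negative in endothelium and glia. For Timp2 it was positive in myeloid cells and negative in stroma and mesothelium. Mmp14 was higher at 1 day in stroma, urothelium, endothelium, glia, mesothelium and myeloid cells, by 1.27-fold to 3.61-fold. The highest of these ratios, in myeloid cells, rests on 4 UMIs in 3 of 60 bladder cells. Within endothelium the lymphatic cluster 1 went the other way, from 89.9 to 39.9 CPM. Timp1 was higher in stroma, endothelium, glia and mesothelium, by 11.5-fold to 49.4-fold.

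**Figure D5:**
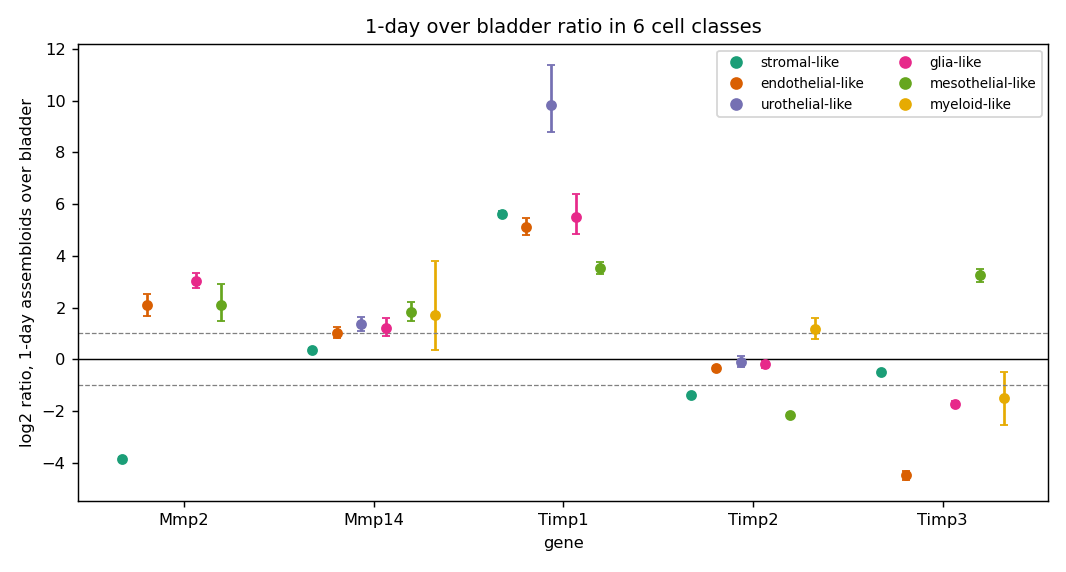
Log2 ratio of 1-day assembloids over bladder for 5 members in 6 cell classes, with exact intervals of counting error; dashed lines mark 2-fold, and a point is missing where the level was under 20 CPM or the bladder count was 0. Mmp2 is at -3.84 in stroma and 3.04 in glia, and Timp3 at -4.49 in endothelium and 3.25 in mesothelium.

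Genes that act on or with the family were followed in stromal-like cells from lists of genes, and the medians below are set beside 0.14 over all genes at 1 day over bladder, the counts beside the 19.9% of all genes higher and 19.8% lower. In the plasminogen system, whose protease plasmin activates MMP precursors, Plaur, the urokinase receptor, reached 39.2 CPM (log2 ratio 1.12). Plat, the tissue plasminogen activator, went from 136.3 to 29.9 CPM and Serpine2 from 107.3 to 45.5. Of 12 genes that bind, process or regulate MMPs and TIMPs, 9 were measured, 3 higher and 4 lower, with a median log2 ratio of 0.50. Reck, a membrane-anchored MMP inhibitor, went from 45.9 to 3.14 CPM, Thbs1 from 159.6 to 1789 and Cd44 from 51.6 to 271.6.

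Of 16 ADAM and ADAMTS proteases, 13 were measured, 3 higher (Adam12, Adam19 and Adamts12) and 6 lower, with a median of -0.44. Adam19 went from 15.4 to 104.8 CPM and Adamts1 from 303.6 to 33.0. Of the other 16 MMP and TIMP genes in the files only Mmp23 (300.7 to 80.7 CPM) and Mmp19 (57.5 to 11.2) were measured in stromal-like cells, and both were lower. Over all classes, 6 of the 16 had at least 20 CPM in a class of a library. Mmp15 had 77.8, 47.9 and 67.3 CPM in urothelial-like cells of bladder, 1 day and 7 days, above Mmp14 in each. Timp4 in endothelial-like cells had 82.6 CPM in bladder, 0 UMIs at 1 day and 22.6 CPM at 7 days. That 7-day value joined 0 UMIs in assembloid-side and 70.6 CPM in bladder-side cells. Of 11 substrate genes 3 were higher (Fn1, Col4a1 and Col4a2) and 7 lower, with a median of -1.59. Dcn, a small proteoglycan, went from 21550 to 431.0 CPM and Eln, elastin, from 740.3 to 17.9, and Fn1, fibronectin, from 623.0 to 1514.

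Of 13 AP-1, ETS, Runx and NF-kappaB factor genes, 12 were measured, 0 higher and 8 lower, with a median of -1.35. Fos went from 2792 to 32.7 CPM and Jun from 1978 to 104.2, while Fosl1 was at 23.8 and 26.9. At 7 days over 1 day 11 genes of this list were measured. Of these, 2 (Fos and Fosb) were at least 2-fold higher and 0 lower, beside 1.46% and 0.0890% of 5621 genes. Fos was at 153.9 CPM in all 7-day cells and 91.3 on the assembloid side. Fos and Jun are immediate early genes, known to respond to enzymatic dissociation, and the part of dissociation in these levels was not tested. At 7 days over bladder the same lists gave 2 higher and 4 lower of 9 for the binding and processing genes, 3 and 4 of 13 for ADAM and ADAMTS, 3 and 7 of 11 for the substrates and 0 and 6 of 12 for the transcription factors, beside 18.2% of all genes higher and 17.4% lower. Plau, the urokinase-type activator, was at 25.7 CPM at 7 days against 3.30 in bladder.

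Across 33 points, each a cell class or a stromal cluster in 1 library with at least 50 cells, the genes most like each member were found by Pearson correlation of log2(CPM + 1) among 6607 genes. The points share libraries and related clusters, so these values are a description. Mmp3 was most like Ptx3 (r = 0.91), Timp1 most like Wisp1 (0.95), Mmp14 most like Fkbp10 (0.94), Mmp11 most like Twist2 (0.92), Timp2 most like Tm2d2 (0.92), Mmp10 most like Asb5 (0.91), Mmp2 most like Gpr153 (0.90) and Timp3 most like Lix1l (0.89). Mmp9 was most like H2-DMa (0.82), and Mmp13 was too low to be included. Between members the highest values were Mmp14 with Timp1 (0.85) and Mmp3 with Mmp10 (0.82), and Mmp2 with Timp1 gave 0.40.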

How the data were processed

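The values deposited by the authors are raw UMI counts of a combined human and mouse gene set. The submitters' processing notes name Cell Ranger, version 3.1.0 per the file headers, and the builds GRCh38, mm10 and hg38. Cell calling is not given in the sources used here. Cells with at least 90% mouse UMIs, at least 500 genes and under 20% mitochondrial UMIs were kept. Scrublet doublets (3.39%, 3.28% and 2.41% of cells) were left out. The cells of the 3 libraries were clustered together (scanpy 1.11.5, Leiden resolution 1, 2000 variable genes, 30 components, 15 neighbours).

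A cluster was named where at least 3 markers, and at least 1 in 3 of a list, were in 25% of its cells and 2-fold above other cells, and no other class led its top 10 genes. In a second step, clusters left over were stromal-like where at least 1 in 2 of the 16 stromal markers reached 2-fold their level in named urothelial, endothelial, glial and myeloid cells. That step named clusters 21, 22 and 23, with 1684, 590 and 719 cells of the 5082 stromal-like cells at 1 day. At 7 days they held 982, 374 and 294 of 3854. Their best list in the first step was that of smooth muscle and pericytes, with 4, 1 and 2 of 18 markers. In the second step 13, 12 and 16 stromal markers counted. This naming rule was chosen after seeing the data. Clusters 15, 20 and 24 stayed unnamed (cluster 20: 501 and 216 cells, cluster 24: 266 and 176 cells at 1 and 7 days). Counts were summed per class and library and scaled to CPM, log2 ratios used 0.5 added counts, and genes under 20 CPM in both libraries were not compared. Thinned shares use only cells with at least 2500 UMIs, cut at random to that number. Shallower cells are left out of them, and cluster 12 of the glia-like cells had a median of 2151 UMIs. Intervals are exact (Poisson, conditional binomial, Clopper-Pearson). Those of the ratios were checked on counts simulated from the Poisson model that they assume. Such a check cannot show how they hold where UMIs are clumped in few cells. Named genes were the 10 members, up to 4 genes of each list with the largest stromal log2 ratio, and the gene most like each member; the other list genes printed (such as Fn1, Fosl1, Plau and Mmp12) and Chchd10 were chosen after their values were seen. The members and lists were chosen with earlier results of these data known. Gene positions come from GENCODE vM21 (mm10) and promoters from RefSeq GRCm38.p6. One gene of the plasminogen list, and the counts of that list, are not reported here.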

Additional observations from a re-analysis of the deposited data

Results flagged for a closer look

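For 3 members the 1-day over bladder log2 ratio had opposite directions in different cell classes. With 1 library per group these differences were not tested, and a different direction between classes may also come with the different clusters that hold a class in each library. For Mmp2 the log2 ratio was -3.84 in stromal-like cells and 2.08, 3.04 and 2.12 in endothelial-like, glia-like and mesothelial-like cells. For Timp2 it was 1.17 in myeloid-like cells and -1.37 and -2.16 in stromal-like and mesothelial-like cells. For Timp3 it was 3.25 in mesothelial-like cells and -4.49, -1.74 and -1.51 in endothelial-like, glia-like and myeloid-like cells. The bladder values of mesothelial-like and myeloid-like cells rest on 50 and 60 cells, and 18 of the 19 Timp3 UMIs of the bladder myeloid-like cells lay in 1 cell, so no direction is read from that value.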

How the results depend on the processing

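The counts of members past 2-fold were 4, 4 and 1 in stroma, 2, 1 and 1 in urothelium and 4, 3 and 3 in endothelium (1 day over bladder, 7 days over bladder, 7 days over 1 day), and 14 alternative settings were run on them. With the assembloid-side cells of the 7-day library alone, 7 days over bladder gave 2 in urothelium and 5 in endothelium, 7 days over 1 day gave 1 in endothelium, and Timp3 in endothelium went from a log2 ratio of 2.95 to -0.32, since that library joins cells with 52.7 and 1356 CPM. Classes taken from each cell's marker UMIs gave 2 in stroma at 7 days over 1 day and 0 in urothelium at 7 days over bladder. A mean of CPM over cells gave 3 in stroma at 7 days over 1 day and 1 in endothelium at 7 days over bladder. In urothelium, where Timp1 at 20.1 CPM sits at the limit, 7 days over bladder gave 0 with at least 1000 genes and under 10% mitochondrial UMIs and 0 at Leiden resolution 2, which also gave 2 at 7 days over 1 day. A minimum of 100 CPM tests fewer genes and gave 0 in stroma at 7 days over 1 day, 0, 0 and 0 in the 3 urothelial comparisons and 2 in endothelium at 1 day over bladder. A minimum of 5 CPM gave 2 in urothelium at 7 days over bladder. Counting mural-like cells as stromal-like, added after seeing the data, gave 2 in stroma at 7 days over 1 day and kept 7 of the 9 stromal ratios past 2-fold, Timp2 falling short at 1 day and 7 days over bladder (-0.81 and -0.68). Except where the construction is named, the cause was not tested. Of 23 log2 ratios past 2-fold, all 23 kept that side with shared barcodes kept, doublets kept, stricter cell filters and Leiden resolution 2, 22 with classes from marker UMIs and after centring, and 21 with a mean over cells. Leaving out the cycling clusters or counting cluster 24 as stromal-like kept all 9 stromal ones, and counting cluster 20 as urothelial-like kept all 4 urothelial ones; these 2 choices on clusters 20 and 24 and the one on cycling cells were also added after seeing the data. Without thinning, 29 of 36 shares of cells with a UMI lay outside their thinned interval. No paired analysis was possible because each group had 1 library. Depth limits Mmp9, Mmp10 and Mmp13 in bladder stroma, where 3 UMIs correspond to 0.353 CPM.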
